A study of Mus musculus with 32 samples.

Results

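The release of neurotransmitter from vesicles was described through 30 genes, chosen by symbol as the SNARE, active zone and synaptic vesicle genes of a mouse cortex series. All 30 were found among the 55401 genes of the count table, each in 1 row, and all 30 passed the filter on low counts with 16042 genes in all. Cortical RNA was sequenced at 6 weeks of age from 10 Ts65Dn;Df(17)2 animals, 10 Dp(16)1/Df(16)8 animals and 12 +/+ animals, with equal numbers of each sex by label in each genotype. As background, Ts65Dn mice carry an extra free chromosome built from the distal part of chromosome 16 and a piece of chromosome 17, and Dp(16)1 mice carry the chromosome 16 part as a duplication in place. The deletions Df(17)2 and Df(16)8 take away the material that only the Ts65Dn or only the Dp(16)1 chromosome adds, so the aneuploid genotypes differ mainly in whether the extra genes sit on a chromosome of their own, and the series asks what that form adds to gene dose. None of the 30 genes lies on chromosome 16 or 17. A strain background and shared litters are not given in the sources used here, and p-values measure the spread between these animals.

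As background, a synaptic vesicle fuses with the terminal membrane when the vesicle SNARE synaptobrevin (Vamp1, Vamp2) zips together with syntaxin (Stx1a) and SNAP-25 (Snap25) in the membrane. Synaptotagmin (Syt1) senses the calcium that enters through nearby channels, complexins (Cplx1, Cplx2) clamp and prime the SNARE bundle, and NSF with its adaptor proteins (Nsf, Napb) takes used bundles apart. Munc13 (Unc13a), RIM (Rims1, Rims2), RIM-binding protein (Rimbp2), bassoon (Bsn), piccolo (Pclo), ELKS (Erc1, Erc2) and liprin-α (Ppfia2, Ppfia3) build the active zone and ready vesicles there, and synapsins (Syn1, Syn2), synaptophysin (Syp), SV2 (Sv2a, Sv2b) and the vesicular glutamate transporter (Slc17a7) sit on the vesicle.

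Depth ran from 5795479 to 11189548 counts per library (median 7883104.5), and the least counted of the 30 genes, Doc2b, had 90 to 763 counts in a library. The expression of sex-linked genes matched the label in 31 of 32 libraries. The exception, Dp(16)1/Df(16)8 replicate 2, stayed under its labelled sex. Without it 1 member passed between Ts65Dn;Df(17)2 and +/+, beside 525 of 16080 genes, but it belongs to neither group of that contrast. Between Dp(16)1/Df(16)8 and +/+, 0 members passed without it, and the share of all tested genes in that setting is not given here. All 18 excitatory cortical neuron markers were detected in every library, with summed CPM, each count divided by the library's scaled total and put on one shared scale, of 2946 to 4631 in Ts65Dn;Df(17)2, 2858 to 6050 in Dp(16)1/Df(16)8, against 2872 to 6218 in +/+. Markers of striatal neurons, a type that lies beneath the cortex, were present at very unequal levels: the 18 striatal markers summed to 1324 to 4717 CPM in Ts65Dn;Df(17)2, 614 to 5127 CPM in Dp(16)1/Df(16)8 and 465 to 5369 CPM in +/+. Their mean log2 CPM, called the striatal score here, had its median at 6.72 in Ts65Dn;Df(17)2, at 6.73 in Dp(16)1/Df(16)8, against 5.0 in +/+. Its mean was 1.15 higher in Ts65Dn;Df(17)2 than in +/+ (permutation test, two-sided, p = 0.0240), 0.617 higher in Dp(16)1/Df(16)8 than in +/+ (p = 0.290). In bulk tissue, fewer cells of a type and less RNA per cell cannot be told apart.

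The promoters of 25 of the 30 genes were matched in the RefSeq table of GRCm38.p6, as windows of 300 bases with 250 before and 50 after the gene start. Of these, 3 held TTCAGCACC on either strand, the left part of the element bound by REST, a repressor of neuronal genes outside neurons. This is 12% of the matched members, beside 0.433% of the 27025 genes in the table. The longer core of that element was in 0 of the 25. Another motif looked for, CRE (TGACGTCA), was in 1 of the 25 (4%), beside 2.03% of the genes. The windows of Unc13a, Ppfia3 and Syn1 are printed because they hold TTCAGCACC. Capitals mark this motif, which reads on the opposite strand in Unc13a. None of these 3 genes passed the test between Ts65Dn;Df(17)2 and +/+ (values below). The match is a description of the letters, not of binding.
Ppfia3 (chr7:45366970-45367269, minus strand, motif 46 bases before the start): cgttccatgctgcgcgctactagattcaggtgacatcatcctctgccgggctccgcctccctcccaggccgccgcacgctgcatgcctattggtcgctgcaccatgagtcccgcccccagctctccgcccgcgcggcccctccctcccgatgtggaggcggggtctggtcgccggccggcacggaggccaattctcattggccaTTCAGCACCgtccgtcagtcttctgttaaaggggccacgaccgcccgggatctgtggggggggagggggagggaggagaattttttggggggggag
Unc13a (chr8:71671708-71672007, minus strand, motif 22 bases after the start): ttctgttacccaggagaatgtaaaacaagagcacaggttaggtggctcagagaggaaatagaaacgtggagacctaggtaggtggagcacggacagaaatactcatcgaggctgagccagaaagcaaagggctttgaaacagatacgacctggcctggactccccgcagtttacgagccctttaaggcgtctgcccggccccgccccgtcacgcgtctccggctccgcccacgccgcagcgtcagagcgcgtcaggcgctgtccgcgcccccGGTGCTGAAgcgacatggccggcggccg
Syn1 (chrX:20920869-20921168, minus strand, motif 232 bases before the start): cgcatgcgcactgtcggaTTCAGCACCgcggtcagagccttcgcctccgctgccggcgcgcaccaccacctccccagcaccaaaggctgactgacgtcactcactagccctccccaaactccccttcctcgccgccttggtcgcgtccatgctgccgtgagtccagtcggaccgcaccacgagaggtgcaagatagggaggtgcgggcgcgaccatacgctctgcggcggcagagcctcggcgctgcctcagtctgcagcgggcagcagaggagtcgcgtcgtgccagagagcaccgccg

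The 30 genes together took 1.34% to 1.65% of all counts in Ts65Dn;Df(17)2, 1.30% to 1.76% in Dp(16)1/Df(16)8, against 1.30% to 1.80% in +/+. On the scale of CPM per kilobase of exon, which allows genes to be compared, the most abundant genes of fusion stood above those of the scaffold in +/+ cortex. Snap25 was the most abundant of the 30, at 269 ± 54.8 CPM per kb, followed by Vamp2 at 244 ± 19.5, Cplx2 at 235 ± 37.4, Syt1 at 188 ± 24.6, Cplx1 at 184 ± 34.1 and Slc17a7 at 176 ± 43.2 CPM per kb (SD, n = 12). Snap25, Vamp2 and Cplx2 differed from each other by less than the SD of Snap25, and Syt1, Cplx1 and Slc17a7 by less than the SD of any of them. The active zone genes were lower, from 82.9 ± 12.9 CPM per kb for Bsn and 52.3 ± 4.74 for Pclo to 20.7 ± 4.91 for Rims1 and 6.97 ± 0.484 CPM per kb for Erc1, the least abundant of the 30.

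Between Ts65Dn;Df(17)2 and +/+ cortex, the release machinery held 1 gene that fell, Bsn, and none that rose. Of the 30 log2 fold changes 25 were below 0, beside 48.6% of those of all tested genes. The median log2 fold change of the 30 was -0.10, beside 0.00475 for all 16042 tested genes. The share of all tested genes called in this contrast was 3.97%, 2.22% downward and 1.75% upward, and 1 of 30 members is close to that background. At an unadjusted p under 0.05 there were 13 of the 30 members and 21.8% of all tested genes. Tests are edgeR's quasi-likelihood F test, with Benjamini-Hochberg adjustment over every tested gene, and intervals are 95% intervals of the log2 fold change. The range of each aneuploid genotype overlapped that of +/+ for all 30 genes. How many of all tested genes overlap in this way is not given here.

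**Figure D1:**
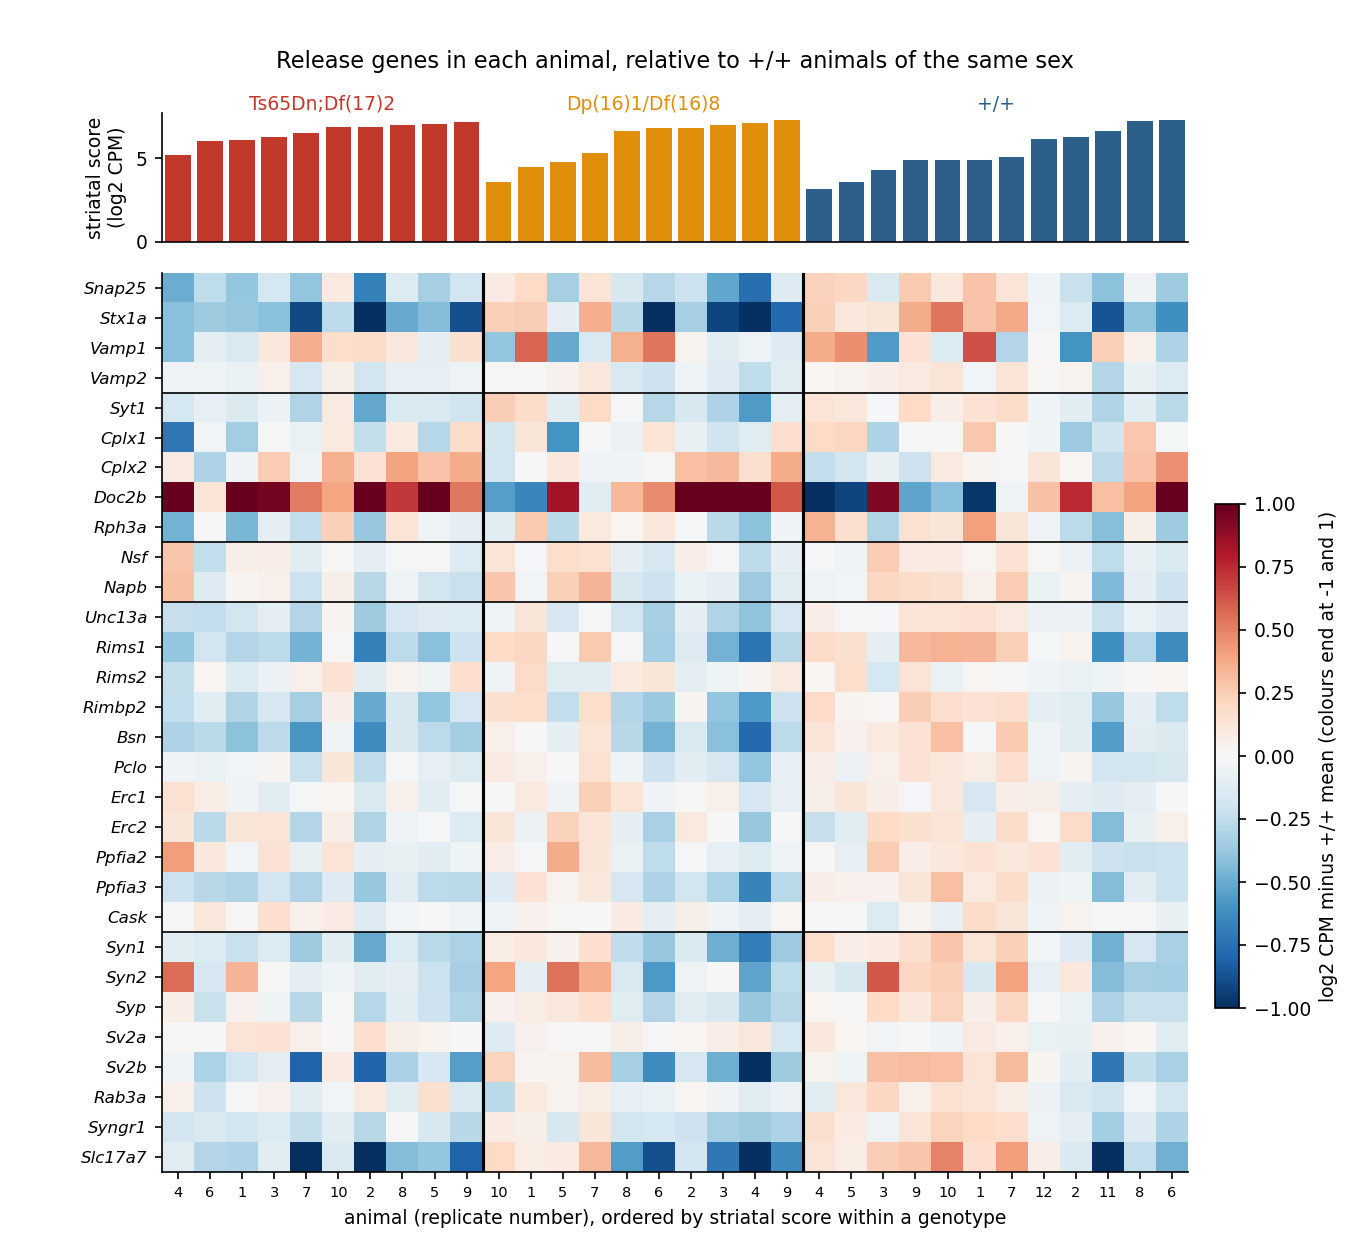
Each cell is 1 gene (down the page, in blocks by role) in 1 animal (across, by genotype and then by striatal score, which the bars above show as mean log2 CPM); colour is the difference in log2 CPM from the mean +/+ animal of that sex. Blue cells, lower than the +/+ mean, gather at the right end of Dp(16)1/Df(16)8 and +/+, where the striatal score is high, and are found over most of Ts65Dn;Df(17)2. Doc2b runs the other way.

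Over the 30 genes, the median difference in log2 CPM from the mean +/+ animal of that sex was computed for each animal, as the map of genes by animal shows gene by gene. It ran from -0.28 to 0.06 with a median of -0.14 in Ts65Dn;Df(17)2, from -0.38 to 0.13 with a median of -0.08 in Dp(16)1/Df(16)8, and from -0.30 to 0.16 with a median of 0.05 in +/+. It lay below 0 in 9 of 10 Ts65Dn;Df(17)2 animals, 6 of 10 Dp(16)1/Df(16)8 animals and 5 of 12 +/+ animals. The genotypes overlapped over most of their range.

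Bassoon, a very large scaffold that marks active zones from early in their assembly, is encoded by Bsn on chromosome 9 (chr9:108096022-108190384, GRCm38, minus strand). Bsn had 809, 1071 and 1179 CPM as the lowest, median and highest value in Ts65Dn;Df(17)2, against 820, 1364 and 1538 CPM in +/+. All 10 Ts65Dn;Df(17)2 animals lay below the +/+ median, and 1 of them lay below the lowest +/+ animal. The log2 fold change was -0.33 (SE 0.094, interval -0.52 to -0.14, edgeR adjusted p = 0.0414), so that the level fell by 20.6%. In Dp(16)1/Df(16)8, Bsn had 818, 1152 and 1406 CPM, with a log2 fold change of -0.22 against +/+ (SE 0.093, adjusted p = 0.322, edgeR). DESeq2, and edgeR with only those genotypes in the fit, each called 5 of the 30 downward (Bsn, Stx1a, Snap25, Ppfia3 and Unc13a). DESeq2 called 6.66% of all tested genes (4.01% downward) and the smaller edgeR fit 5.8% (3.47% downward). By limma voom 1 of the 30 was called, Bsn, beside 4.06% of all tested genes (1.96% downward). The call on Bsn stood near the threshold: it was lost (edgeR adjusted p between 0.0532 and 0.0876) without +/+ replicate 1, 3, 4, 5, 7, 9 or 10 and without Ts65Dn;Df(17)2 replicate 1, 2, 4, 6, 7, 8 or 9. It was also lost with no filter on low counts (edgeR adjusted p = 0.0629), with no sex term (0.0514) and without animals numbered below 30000 (0.0661). The animals numbered below 30000 were 2, both Ts65Dn;Df(17)2. With blocks of animal numbers in the model the log2 fold change was -0.40 and the edgeR adjusted p 0.145. Only 2 of these blocks held both genotypes, with 8 Ts65Dn;Df(17)2 and 5 +/+ animals. Genotype and animal number were thus partly confounded, in the main fit as well, and cannot be fully told apart. Without +/+ replicate 11, an animal of high striatal score, edgeR called 10 of the 30 downward, beside 9.27% of all tested genes (5.16% downward). With the striatal score added to the model the log2 fold change of Bsn was -0.19, with an edgeR adjusted p of 0.311.

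The other scaffold and priming genes split into those with intervals below 0 and those near 0. Unc13a, whose product opens syntaxin so that vesicles become ready to fuse, had 407, 457 and 509 CPM in Ts65Dn;Df(17)2, 397, 462 and 588 CPM in Dp(16)1/Df(16)8, and 427, 532 and 598 CPM in +/+. All 10 Ts65Dn;Df(17)2 and 9 of 10 Dp(16)1/Df(16)8 animals lay below the +/+ median. Its log2 fold change was -0.18 in Ts65Dn;Df(17)2 (SE 0.056, edgeR adjusted p = 0.0570) and -0.16 in Dp(16)1/Df(16)8 (SE 0.056, edgeR adjusted p = 0.241), the smallest adjusted p of the 30 in that contrast. Ppfia3 had 128, 142 and 152 CPM in Ts65Dn;Df(17)2, against 117, 175 and 194 CPM in +/+, with a log2 fold change of -0.25 (SE 0.076, edgeR adjusted p = 0.0537). Rims1, a RIM that tethers vesicles and calcium channels, had 96.3, 120 and 136 CPM in Ts65Dn;Df(17)2, 98.2, 141 and 188 CPM in Dp(16)1/Df(16)8 and 87.8, 163 and 206 CPM in +/+. The log2 fold change was -0.35 (SE 0.118, edgeR adjusted p = 0.0823) in Ts65Dn;Df(17)2. Rimbp2 gave -0.24 (SE 0.086, edgeR adjusted p = 0.102). The 6 others, Rims2, Pclo, Erc1, Erc2, Ppfia2 and Cask, had log2 fold changes from -0.07 to 0.04 in Ts65Dn;Df(17)2. For Rims2 and Cask, whose product is a scaffold of the MAGUK family, the intervals were -0.11 to 0.07 and -0.06 to 0.10.

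Among the SNARE genes, the plasma membrane pair had the larger differences and the vesicle SNAREs small ones, and none of the 4 passed the test. Stx1a (chr5:135023482-135051100) had 65.7, 99.3 and 119 CPM in Ts65Dn;Df(17)2, 59.6, 112 and 183 CPM in Dp(16)1/Df(16)8, and 67.6, 160 and 188 CPM in +/+. Each Ts65Dn;Df(17)2 animal lay below the +/+ median and 3 lay below the lowest +/+ animal, while the Dp(16)1/Df(16)8 animals spread over 3.06-fold. Its log2 fold change in Ts65Dn;Df(17)2 was -0.60, the lowest of the 30 (SE 0.183, interval -0.98 to -0.23, edgeR adjusted p = 0.0538). Snap25 had 1217, 1435 and 1765 CPM in Ts65Dn;Df(17)2, 1184, 1526 and 2292 CPM in Dp(16)1/Df(16)8 and 1204, 1737 and 2439 CPM in +/+, with log2 fold changes of -0.31 (SE 0.100, edgeR adjusted p = 0.0700) and -0.20 (SE 0.100, edgeR adjusted p = 0.407). Vamp2, the main synaptobrevin of the forebrain, had 814 to 973 CPM in Ts65Dn;Df(17)2, against 746 to 1003 CPM in +/+, a log2 fold change of -0.06 with an interval of -0.16 to 0.03. Vamp1 gave -0.00472, with a wide interval of -0.29 to 0.28.

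**Figure D2:**
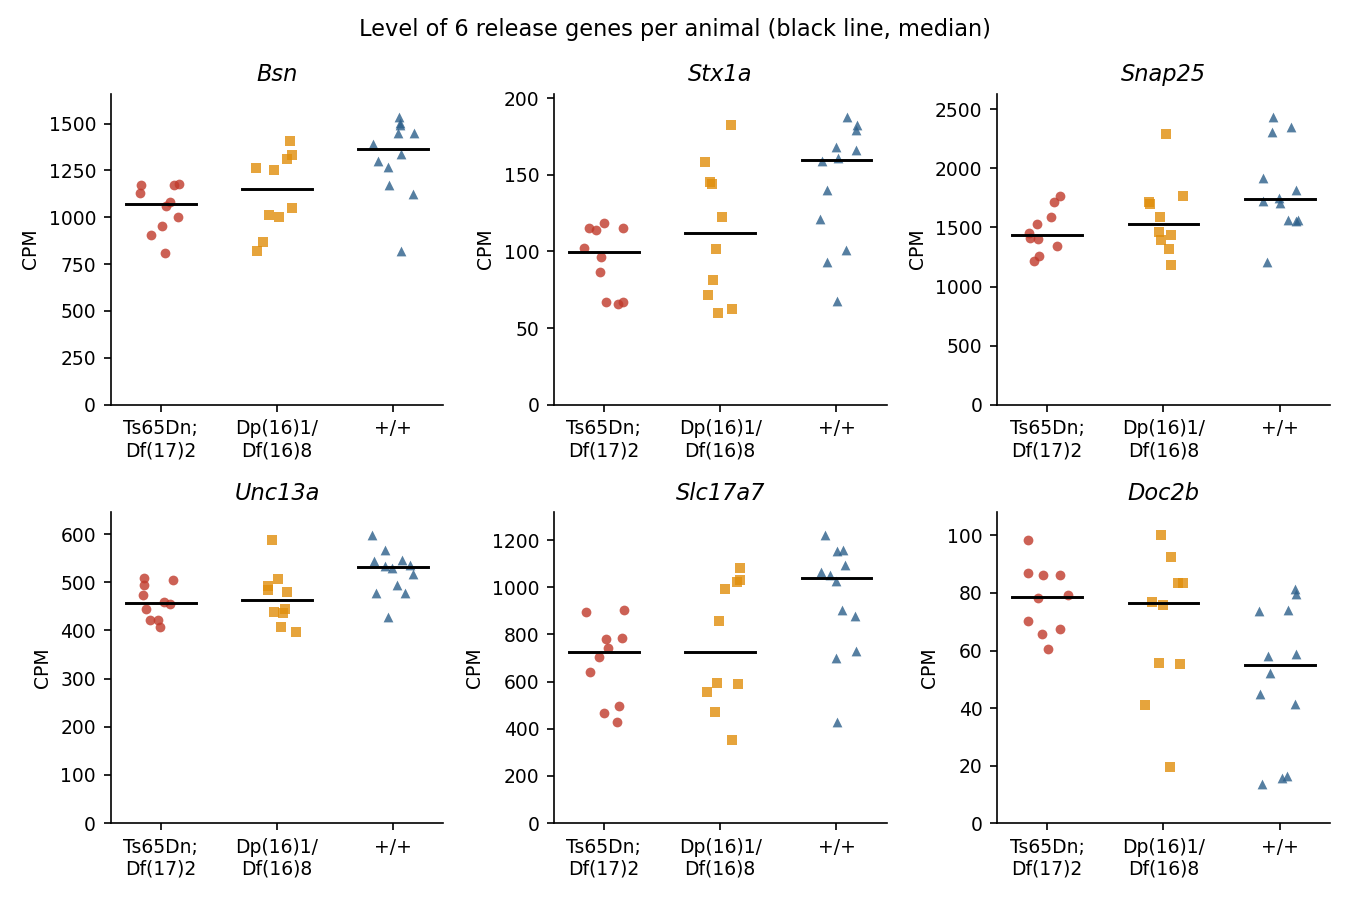
Level in CPM of 6 release genes, 1 point per animal, with the median of each genotype as a black line and axes that start at 0. All 10 Ts65Dn;Df(17)2 animals lie below the +/+ median for Bsn, Stx1a, Unc13a and Slc17a7, 9 of 10 for Snap25, and all 10 lie above it for Doc2b; the genotypes overlap in every panel.

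Of the calcium sensors and fusion regulators, Doc2b had the highest log2 fold change of the 30 and Syt1 a negative one. Doc2b, a calcium sensor with high affinity that is linked to spontaneous release, had 60.5, 78.7 and 98.4 CPM in Ts65Dn;Df(17)2, 19.6, 76.4 and 100 CPM in Dp(16)1/Df(16)8, and 13.7, 55.1 and 81.3 CPM in +/+. All 10 Ts65Dn;Df(17)2 animals lay above the +/+ median, whereas +/+ animals ranged 5.93-fold, the widest range of the 30 genes in +/+. The log2 fold change was 0.64 (SE 0.250, interval 0.13 to 1.15, edgeR adjusted p = 0.128) in Ts65Dn;Df(17)2 and 0.45 (SE 0.251, edgeR adjusted p = 0.445) in Dp(16)1/Df(16)8. Syt1 had 1161, 1419 and 1585 CPM in Ts65Dn;Df(17)2, against 1184, 1584 and 1831 CPM in +/+, a log2 fold change of -0.17 (SE 0.080, edgeR adjusted p = 0.207). Cplx1 and Cplx2, complexins with different distribution over neuron types, gave -0.13 and 0.15 (edgeR adjusted p = 0.406 and 0.325). Rph3a, an effector of Rab3 on vesicles, gave -0.15 (edgeR adjusted p = 0.374).

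The genes of SNARE disassembly had log2 fold changes near 0. Nsf, the ATPase, had 608, 711 and 848 CPM in Ts65Dn;Df(17)2, 583, 688 and 804 CPM in Dp(16)1/Df(16)8 and 605, 699 and 833 CPM in +/+, with a log2 fold change of -0.02 and an interval of -0.14 to 0.10 in Ts65Dn;Df(17)2. Napb, the β-SNAP adaptor of brain, had 439, 497 and 654 CPM in Ts65Dn;Df(17)2, 415, 504 and 671 CPM in Dp(16)1/Df(16)8 and 390 to 630 CPM in +/+ (median 533), with log2 fold changes of -0.07 (interval -0.24 to 0.11) and -0.01 (interval -0.19 to 0.16).

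The 8 vesicle genes had 7 log2 fold changes below 0 in Ts65Dn;Df(17)2 and 8 in Dp(16)1/Df(16)8, and none passed the test in either. Slc17a7, the glutamate transporter VGLUT1 of cortical excitatory terminals, had 428, 725 and 905 CPM in Ts65Dn;Df(17)2, 354, 724 and 1081 CPM in Dp(16)1/Df(16)8, and 430, 1038 and 1221 CPM in +/+. All 10 Ts65Dn;Df(17)2 and 9 of 10 Dp(16)1/Df(16)8 animals lay below the +/+ median. The log2 fold change was -0.48 (SE 0.181, edgeR adjusted p = 0.115) in Ts65Dn;Df(17)2 and -0.33 (SE 0.181, edgeR adjusted p = 0.438) in Dp(16)1/Df(16)8. Syngr1, a synaptogyrin of the vesicle membrane, had the smallest p of the 8 in both contrasts: 358, 418 and 446 CPM in Ts65Dn;Df(17)2, 351, 406 and 509 CPM in Dp(16)1/Df(16)8 and 344, 475 and 562 CPM in +/+, with log2 fold changes of -0.18 (SE 0.067, edgeR adjusted p = 0.108) and -0.15 (SE 0.067, edgeR adjusted p = 0.343). Sv2b gave -0.32 (edgeR adjusted p = 0.175) and Syn1 -0.24 (edgeR adjusted p = 0.121) in Ts65Dn;Df(17)2. Their paralogues gave other values: Sv2a, the more even of the SV2 genes, ranged over 446 to 498 CPM in Ts65Dn;Df(17)2 against 407 to 476 CPM in +/+, with a log2 fold change of 0.06 and an interval of -0.01 to 0.13, and Syn2 gave -0.03 with an interval of -0.30 to 0.25. Rab3a, the small GTPase that docks vesicles, gave -0.03 (interval -0.13 to 0.07), and Syp gave -0.14 (interval -0.29 to 0.01).

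In Dp(16)1/Df(16)8 against +/+, 0 of the 30 genes passed edgeR's test and 4 (Unc13a, Bsn, Syngr1 and Ppfia3) had an unadjusted p under 0.05, as did 12.8% of all tested genes. The share called by edgeR over all tested genes was 0.573% (0.418% upward, 0.156% downward). By limma voom and DESeq2 the count of members was also 0, and their shares over all tested genes in this contrast are not given here. The log2 fold changes were below 0 for 25 of 30, beside 49.5% of all tested genes, with a median of -0.08 beside 0.00143 over all genes. This contrast uses the same +/+ animals as the contrast of Ts65Dn;Df(17)2. Directly between Ts65Dn;Df(17)2 and Dp(16)1/Df(16)8, 0 of the 30 passed (0.0499% of all tested genes did, 0.0436% upward and 0.00623% downward), 0 had an unadjusted p under 0.05 and the smallest unadjusted p was 0.0804, for Sv2a. The intervals of this contrast included -0.31 to 0.09 for Bsn, -0.65 to 0.13 for Stx1a, -0.46 to 0.04 for Rims1 and -0.14 to 0.09 for Unc13a, so a difference of moderate size between the aneuploid genotypes could not be detected for the more variable genes. No release gene was shown to differ between the freestanding and the in-place form of the extra genes.

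Sex by label made no call either. The labelled females included Dp(16)1/Df(16)8 replicate 2, whose sex-linked genes went against its label. Values of the sex contrasts below without that animal are not given here. Of the 30 genes 0 passed between females and males (0.0748% of all tested genes did, 0.0436% higher in females and 0.0312% lower), and 4 had an unadjusted p under 0.05, as did 9.94% of all tested genes. The log2 differences, females minus males, were above 0 for 26 of the 30 with a median of 0.08, beside -0.00407 over all genes, of which 51.9% were below 0. For the difference of the genotype effect between the sexes, 0 genes passed among the 30 and 0% of all tested genes did, in either aneuploid genotype.

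More of the release genes changed with the striatal score than with genotype or sex. At fixed genotype and sex, 20 of the 30 fell and 2 rose as the score rose, while 13.4% of all tested genes fell and 13.9% rose (27.3% in all). Those that fell were 3 of 4 SNARE genes, 1 of 5 calcium sensors and regulators, both disassembly genes, 8 of 11 active zone genes and 6 of 8 vesicle genes. The steepest were Stx1a, with a log2 change of -0.29 for each unit of score (SE 0.047, edgeR adjusted p = 1.3e-05), Slc17a7 at -0.26 (SE 0.052, edgeR adjusted p = 0.00018), Sv2b at -0.19, Rims1 and Syn2 each at -0.18, and Syn1 at -0.16. The 2 that rose were Doc2b, by 0.41 (SE 0.064, edgeR adjusted p = 7.3e-06), and Cplx2, by 0.13 (SE 0.025, edgeR adjusted p = 0.00022). The 8 that did not pass were Vamp1, Cplx1, Rph3a, Rims2, Erc2, Cask, Sv2a and Rab3a. For Sv2a and Rims2 the intervals of the slope were -0.03 to 0.02 and -0.03 to 0.04. No member was among the markers that make up the score.

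**Figure D3:**
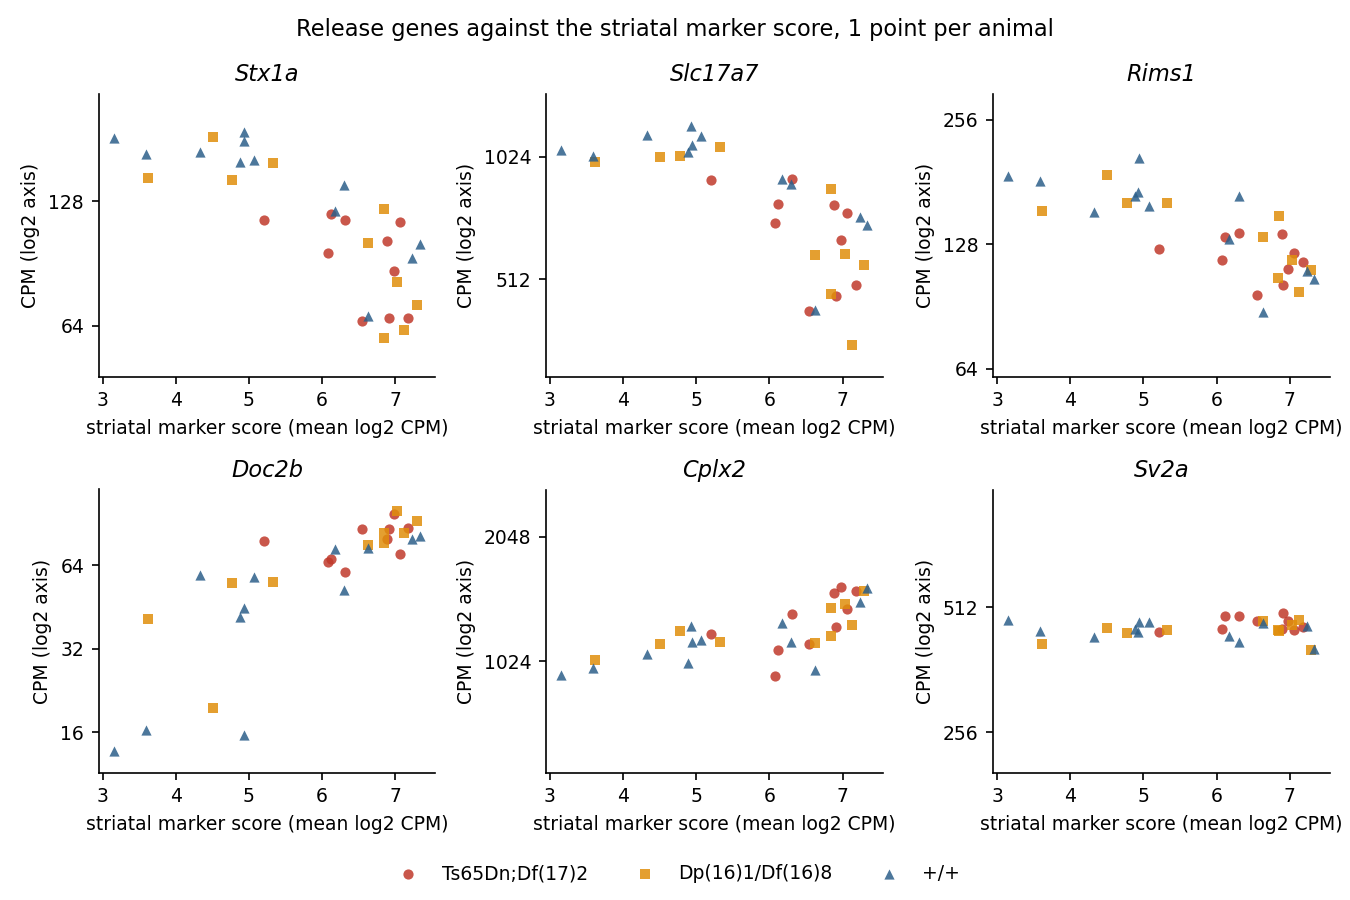
Level in CPM (log2 axis) of 6 release genes against the striatal marker score (mean log2 CPM of 18 markers), 1 point per animal, with genotype by colour and shape. Stx1a, Slc17a7 and Rims1 are low where the score is high, Doc2b and Cplx2 are high there, and Sv2a is level; no score lies between 5.32 and 6.08.

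The scores were unevenly spread: no animal lay between 5.32 and 6.08, and 1 of 10 Ts65Dn;Df(17)2, 4 of 10 Dp(16)1/Df(16)8 and 7 of 12 +/+ animals lay below that gap, so a slope rests in part on the contrast of its ends, and no correlation is given. Among the 12 +/+ animals alone, with fewer genes passing the count filter, 2 of the 30 rose and 8 fell with the score (5.62% and 4.84% of 13773 genes). The 2 were Doc2b and Cplx2 and the 8 were Snap25, Stx1a, Syt1, Rims1, Rimbp2, Syn1, Syngr1 and Slc17a7. The +/+ animal of lowest score, replicate 4 at 3.16, had 182 CPM of Stx1a, 1063 CPM of Slc17a7 and 13.7 CPM of Doc2b. That of highest score, replicate 6 at 7.34, had 101, 698 and 81.3 CPM. A second +/+ animal, replicate 11 at 6.63, had the lowest +/+ level of Stx1a (67.6 CPM), Slc17a7 (430 CPM) and Bsn (820 CPM).

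**Figure D4:**
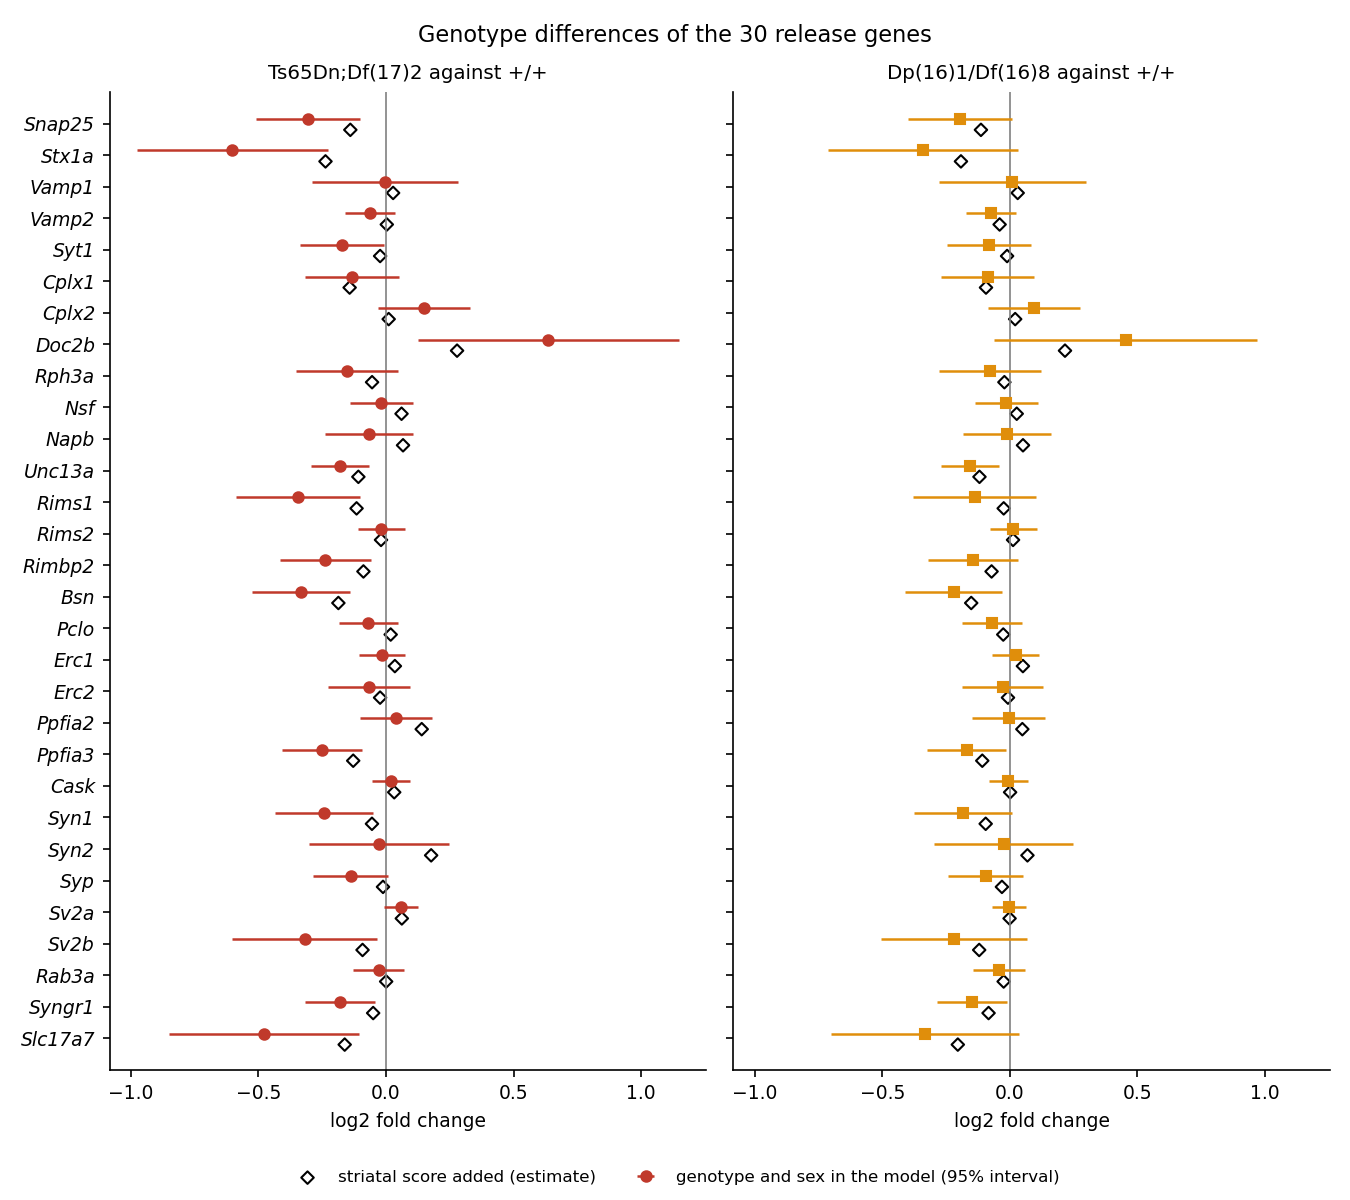
Log2 fold change of each of the 30 genes against +/+, with 95% interval, in Ts65Dn;Df(17)2 (left, circles) and Dp(16)1/Df(16)8 (right, squares), from the model with genotype and sex; open diamonds give the estimate with the striatal score added. The median moves to -0.02 in each genotype with the score, and 20 and 23 of the 30 estimates come closer to 0.

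With the score as a term in the model, 0 of the 30 genes passed in Ts65Dn;Df(17)2 (0.979% of all tested genes did, 0.293% downward), the median log2 fold change was -0.02 in place of -0.10, and 17 of 30 were below 0. The estimate came closer to 0 for 20 of the 30 genes, the median standard error was 0.0677 in place of 0.0823, and Stx1a gave -0.24, Slc17a7 -0.16, Doc2b 0.28 and Snap25 -0.14. In Dp(16)1/Df(16)8 the median was -0.02 in place of -0.08. Of the other cell type lists, excitatory cortical markers had a median log2 fold change of -0.52 in Ts65Dn;Df(17)2 with 7 of 18 called lower, interneuron markers 0.34 with 3 of 16 called higher, and general neuron markers -0.02 with 0 of 14 passing. Of all tested genes 2.22% were called downward and 1.75% upward in this contrast. The lists were mixed: 4 of 18 excitatory markers lay above 0 (Foxp2 highest, 0.65) and 4 of 16 interneuron markers below 0 (Pvalb lowest, -0.67). Astrocyte markers had a median of -0.14 with 3 of 12 called lower in Ts65Dn;Df(17)2. In Dp(16)1/Df(16)8 their median was -0.06 with 1 of 12 called lower, beside 0.156% of all tested genes. Of the microglia markers 1 of 12 was higher in Ts65Dn;Df(17)2, and none passed in the other lists. The part of these markers in the genotype differences of the release genes was not tested beyond the model with the score.

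Paralogues with the same role differed in how even they were, which was set out for 7 pairs as log2 ratios per kilobase. Ppfia2 and Ppfia3 encode liprin-α proteins, which organise active zones. Their log2 ratio, Ppfia2 over Ppfia3, was -0.44, -0.25 and 0.04 in Ts65Dn;Df(17)2, -0.75, -0.36 and -0.07 in Dp(16)1/Df(16)8, and -0.73, -0.56 and -0.23 in +/+, as lowest, median and highest. The mean was 0.28 higher in Ts65Dn;Df(17)2 than in +/+ (permutation test, two-sided, p = 0.00066, and Benjamini-Hochberg p = 0.0139 over the 21 comparisons of 7 pairs), and it was the 1 comparison of the 21 that passed. The difference was 0.33 in females (exact permutation p = 0.00866) and 0.23 in males (exact permutation p = 0.0346). Within the 2 ranges of animal numbers that hold both genotypes it was 0.31 (exact permutation p = 0.00476, the smallest that 210 arrangements can give). Those ranges held 8 Ts65Dn;Df(17)2 and 5 +/+ animals, with 1 +/+ animal alone in the second range. These subsets of the same animals were chosen after the data were seen, so they are no separate support for the difference. In Dp(16)1/Df(16)8 the ratio was 0.17 higher than in +/+ (Benjamini-Hochberg p = 0.147), and 0.11 higher in Ts65Dn;Df(17)2 than in Dp(16)1/Df(16)8 (Benjamini-Hochberg p = 0.374). Both genes fell with the striatal score, Ppfia2 by 0.09 and Ppfia3 by 0.10 on the log2 scale for each unit. With the score in the model their log2 fold changes in Ts65Dn;Df(17)2 were 0.14 and -0.13 (edgeR adjusted p = 0.314 and 0.395). The genotype difference of the ratio itself was not tested with the score in the model. Ppfia2 shares 2436 exon bases with Acss3 on the other strand, which had 585 counts over all libraries beside 39463 for Ppfia2.

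**Figure D5:**
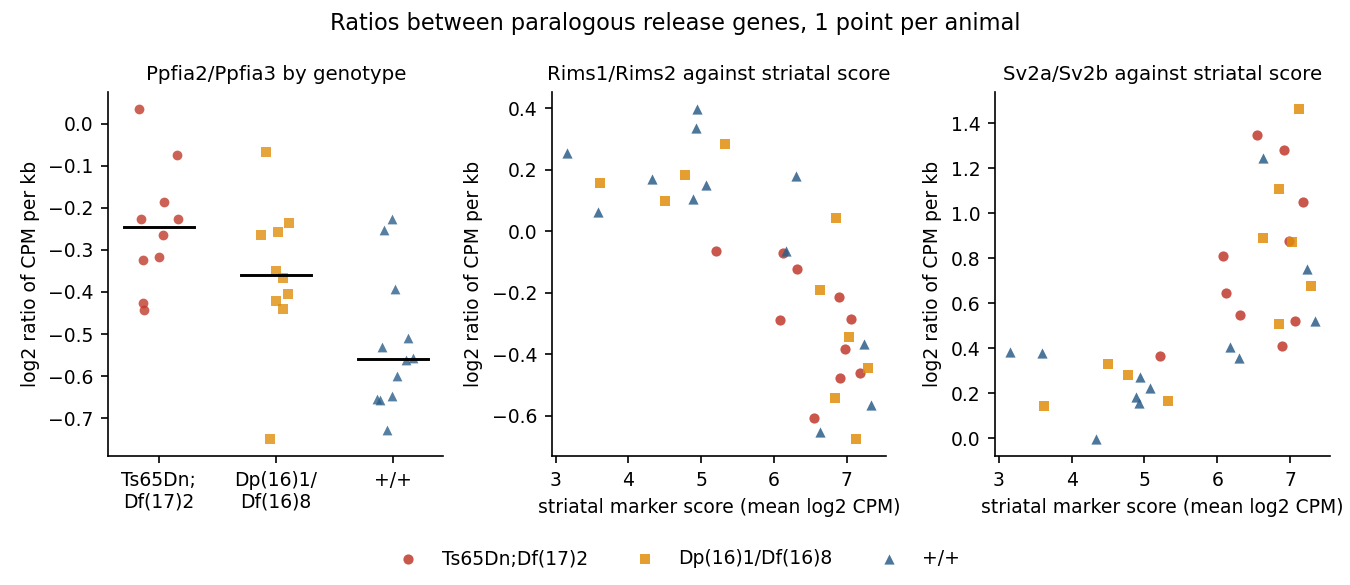
Log2 ratios of CPM per kb between paralogous release genes, 1 point per animal: Ppfia2/Ppfia3 by genotype with medians as black lines (left), and Rims1/Rims2 (middle) and Sv2a/Sv2b (right) against the striatal score. The Ppfia2/Ppfia3 medians are -0.25 in Ts65Dn;Df(17)2, -0.36 in Dp(16)1/Df(16)8, against -0.56 in +/+; Rims1/Rims2 is low and Sv2a/Sv2b high where the score is high.

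The other pairs changed with the score in 1 member only or in both. Rims1 fell with the score and Rims2 did not pass. Their log2 ratio ran from -0.65 to 0.40 within +/+. It was -0.61, -0.29 and -0.06 in Ts65Dn;Df(17)2 against a +/+ median of 0.13 (Benjamini-Hochberg p = 0.147). Sv2b fell and Sv2a did not pass, with a log2 ratio of Sv2a over Sv2b of 0.36, 0.73 and 1.35 in Ts65Dn;Df(17)2 and -0.00582, 0.37 and 1.25 in +/+ (Benjamini-Hochberg p = 0.147). Syn1 stood above Syn2 per kilobase in every library, by 0.71 to 1.33 in Ts65Dn;Df(17)2, 0.78 to 1.58 in Dp(16)1/Df(16)8, against 0.84 to 1.68 in +/+ on the log2 scale. Vamp1 stood below Vamp2, with a mean log2 ratio of -4.74 ± 0.228 in Ts65Dn;Df(17)2 (SD, n = 10) and -4.84 ± 0.456 in +/+ (SD, n = 12).

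Of 88 further genes of the presynaptic terminal, 86 were tested. In Ts65Dn;Df(17)2, 4 rose and 2 fell (6.98% of the 86, beside 3.97% of all tested genes), with a median log2 fold change of -0.02 beside 0.00475 over all genes. Rab27b, a small GTPase of secretory vesicles, rose by 0.23 (SE 0.051, edgeR adjusted p = 0.00895), with 48.3, 58.6 and 68.6 CPM in Ts65Dn;Df(17)2 against 46.1, 49.8 and 56.1 CPM in +/+. Rab3b, a relative of Rab3a, rose by 0.33 (edgeR adjusted p = 0.0196), with 43.1, 48.0 and 56.7 CPM against 30.3, 38.7 and 46.6 CPM in +/+. Tspoap1, a RIM-binding protein, rose by 0.18 (edgeR adjusted p = 0.0163), with 307 to 381 CPM in Ts65Dn;Df(17)2 and 272 to 334 CPM in +/+. Scamp1, a vesicle carrier protein, rose by 0.14 (edgeR adjusted p = 0.0350). Napa, the α-SNAP paralogue of Napb, fell by 0.21 (SE 0.054, edgeR adjusted p = 0.0253), with 103, 111 and 126 CPM in Ts65Dn;Df(17)2 against 114, 126 and 159 CPM in +/+. Cacna1a, the pore of the P/Q-type channel that triggers release, fell by 0.27 (SE 0.076, edgeR adjusted p = 0.0384), with 236, 259 and 297 CPM against 224, 309 and 402 CPM in +/+. In Dp(16)1/Df(16)8, 1 of the 86 rose, the SNARE Vamp4, by 0.18 (SE 0.040, edgeR adjusted p = 0.0146), with 82.0, 88.9 and 96.1 CPM against 73.1, 78.0 and 86.6 CPM in +/+ (1.16% of the 86, beside 0.573% of all tested genes). None of the 86 passed between the aneuploid genotypes.

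With the striatal score, 19 of the 86 rose and 31 fell, beside 13.9% and 13.4% of all tested genes, and those that rose most included genes that share a role with members that fell. Sv2c rose by 0.56 for each unit (SE 0.036, edgeR adjusted p = 6e-14) where Sv2b fell, Unc13c by 0.45 (SE 0.038, edgeR adjusted p = 6.2e-11) where Unc13a fell, and Slc32a1, the vesicular transporter of GABA, by 0.43 (SE 0.038, edgeR adjusted p = 1.2e-10) where Slc17a7 fell. Slc17a8, of the same family as Slc17a7, had a slope of 0.56, the highest among the vesicle proteins and transporters of the 86. The highest slope of the 86 was that of Syt6, at 0.65. Unc13b, of the same family as Unc13c, had a slope of -0.20. Sv2c had 135, 227 and 258 CPM in Ts65Dn;Df(17)2, 47.8, 220 and 304 CPM in Dp(16)1/Df(16)8, and 65.3, 95.8 and 269 CPM in +/+, without passing between genotypes (edgeR adjusted p = 0.177 in Ts65Dn;Df(17)2). These genes were chosen after their values were seen.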

How the data were processed

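The authors deposited 1 table of raw counts per gene for 32 mouse cerebral cortex libraries. Ribosomal RNA was removed before library preparation, per the labels' protocols. The submitters' processing notes list bcl2fastq 2.20, STAR 2.7.9a, featureCounts and Subread 1.6.4, and name GRCm38.p6 beside GRCh38. What GRCh38 served for, the annotation and the strand setting are not given in the sources used here, so reads of genes that overlap on opposite strands cannot be separated.

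Genes were kept by filterByExpr by genotype (16042 genes, 99.7% of the counts), scaled by TMM and fitted with edgeR 4.0.16 in R 4.3.3 with terms for genotype and sex over all 32 libraries. P-values were adjusted over all tested genes with a threshold of 0.05. The striatal score, the mean log2 CPM of 18 markers (prior count 2), was a covariate in a second fit. Exon lengths came from GENCODE on GRCm38, matched by identifier; 28 of the 30 members had the same version. Permutation tests used 100000 permutations, or all arrangements. DESeq2 1.42.0, limma 3.58.1, other scalings, filters and covariates, blocks of animal numbers and leaving out single libraries were alternatives. Scripts were tested on simulated data. The members and lists were chosen with earlier results of these data known. Of the 250 listed symbols 249 were found. Values over all libraries are given for members past the threshold, for those with the smallest p of each role in a contrast and for others described by role; of the 86 other genes, those past the threshold are named.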

Additional observations from a re-analysis of the deposited data

Results flagged for a closer look

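Among the 30 release genes in the 2 aneuploid genotypes, 60 groups of 10 animals were looked at for an animal far from its nearest neighbour. There were 4 such cases. Chance flags about 1 in 20 groups, so 4 of 60 is near the number that chance gives. Dp(16)1/Df(16)8 replicate 1 had 2292 CPM of Snap25, where the next animal had 1764 CPM and the group's median was 1526 CPM. Ts65Dn;Df(17)2 replicate 4 stood above its group for 3 genes: Nsf at 848 CPM (next 733 CPM), Napb at 654 CPM (next 552 CPM) and Ppfia2 at 210 CPM (next 175 CPM). This animal had the lowest striatal score of its genotype, 5.21, and the part of the score in these levels was not tested. Without it the log2 ratio of Ppfia2 over Ppfia3 stayed higher in Ts65Dn;Df(17)2 than in +/+.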

How the results depend on the processing

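In Ts65Dn;Df(17)2 against +/+, 1 member passed; the count was 0 with no filter on low counts, with no sex term, with the striatal score as a term, with blocks of animal numbers and without animals numbered below 30000, and 5 by DESeq2 or with only those 2 genotypes in the fit (Snap25, Stx1a, Ppfia3, Unc13a and Bsn in both; DESeq2 called 6.66% of all genes). Leaving out single libraries gave 0 to 10 members, with 10 without +/+ replicate 11, 6 without +/+ replicate 6 and 3 without +/+ replicate 8 or Ts65Dn;Df(17)2 replicate 10. Over all tested genes, 637 of 16042 passed in the main fit, 77 with blocks, 157 with the score and 450 with no sex term. The count was 1486 of 16035 without +/+ replicate 11, 1108 of 15976 without +/+ replicate 6 and 689 of 16044 without +/+ replicate 8. It was 710 of 16077 without Ts65Dn;Df(17)2 replicate 10 and 331 of 32338 with no filter. The count of 6 among the other presynaptic genes was 1 with the score, 0 with blocks, 2 without animals numbered below 30000 and 3 to 18 without single libraries (18 without +/+ replicate 11, 12 without +/+ replicate 6, 3 without +/+ replicate 5 or Ts65Dn;Df(17)2 replicate 2 or 7). Of all tested genes, 280 passed without animals numbered below 30000 and 294 without +/+ replicate 5. Without Ts65Dn;Df(17)2 replicate 2 or 7, 264 and 276 passed. In Dp(16)1/Df(16)8 the count of 1 was 0 with no filter and with blocks, 2 by DESeq2, with only those 2 genotypes and without the library against its sex label, and 1 to 3 without single libraries (3 without Dp(16)1/Df(16)8 replicate 1, 2 without Dp(16)1/Df(16)8 replicate 2 or 7 or +/+ replicate 2 or 11). For this genotype, counts over all tested genes in these settings are not given here. Members that change with the score numbered 22, and 10 in +/+ libraries alone. The cause of these shifts was not tested. The median log2 fold change of the members without single libraries ran from -0.13 to -0.09 in Ts65Dn;Df(17)2, from -0.11 to -0.04 in Dp(16)1/Df(16)8 and from -0.06 to -0.02 between them. The difference in the Ppfia2 to Ppfia3 ratio, whose alternatives were chosen after seeing the data, ran from 0.25 to 0.31 without single libraries and was 0.27 without animals numbered below 30000. No result changed sign with its call. No paired analysis was possible because the sources used here give no pairing of animals. The labels give no replicate numbers, and those used here follow the order of the samples within a genotype (+/+ replicate 11 is animal 32333). The blocks above are runs of animal numbers with gaps of at most 5.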
